A study of Arabidopsis thaliana with 3 samples.

Results

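The phenylpropanoid, lignin and flavonoid pathway was described through 34 genes, chosen by name from a list of AGI locus identifiers, of 27416 genes in the deposited tables. The rule names loci and uses no measured value, but the list was drawn up with earlier results of these data known. The list held 16 enzymes of the general phenylpropanoid and lignin routes, 11 enzymes and carriers of the flavonol and anthocyanin routes, and 7 regulators. All 34 were found in each table. RNA came from whole wild-type seedlings of Arabidopsis thaliana, a small weed used as a laboratory plant, in the Col-0 background. They were 3 weeks old and grew on MS plates under a 16 h light and 8 h dark cycle at 23 ± 2 °C. The 3 libraries form a single group and carry the replicate numbers 4, 5 and 6, so the data give levels of genes within these plants and differences between libraries, with no treated or mutant plants to set against them. Nothing in the labels says that the libraries came from separate batches of plants, so the spread between them may be partly technical. The values were taken as FPKM (fragments scaled to gene length and to the library total). RPKM from whole reads is also possible, since the values came out as whole reads over gene length and library total.

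Phenylpropanoids are built from phenylalanine. PAL removes its amino group to give cinnamate, C4H hydroxylates cinnamate to p-coumarate, and 4CL joins p-coumarate to coenzyme A. From p-coumaroyl-CoA the path divides. HCT and the enzymes after it lead to monolignols, the units of lignin, which stiffens the walls of water-conducting cells, and to sinapate esters, which screen ultraviolet light in leaves. CHS leads instead to flavonoids, which include flavonols, the red and purple anthocyanins and the tannins of the seed coat.

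The promoters of 4 genes that the levels described below turn on are shown. CCoAOMT1 and HCT had the highest levels of the 34, CHS opens the flavonoid route, and DFR opens the anthocyanin branch. Each run is the 250 bases before the annotated gene start in the RefSeq annotation of TAIR10.1, written 5′ to 3′ on the strand of the gene. Capitals mark matches to ACCNACC, called the AC element here, and to the G-box CACGTG, a site of light-related bZIP and bHLH factors. ACCNACC is a loose form of MYB factor sites known from lignin genes, with any base allowed at N. Sites that differ from it at another position, or lie beyond the 250 bases, were not counted. In the lignin-route promoters every match read ACCAACC or ACCTACC. DFR had ACCCACC and the regulator MYB12 had ACCGACC, and whether these forms are bound was not tested.
CCoAOMT1, chr4:16310159-16310408, plus strand: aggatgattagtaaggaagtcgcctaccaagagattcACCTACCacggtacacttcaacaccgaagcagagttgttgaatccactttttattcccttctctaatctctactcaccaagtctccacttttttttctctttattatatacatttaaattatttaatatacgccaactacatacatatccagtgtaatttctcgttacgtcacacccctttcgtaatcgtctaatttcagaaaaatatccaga
HCT, chr5:19838236-19838485, minus strand: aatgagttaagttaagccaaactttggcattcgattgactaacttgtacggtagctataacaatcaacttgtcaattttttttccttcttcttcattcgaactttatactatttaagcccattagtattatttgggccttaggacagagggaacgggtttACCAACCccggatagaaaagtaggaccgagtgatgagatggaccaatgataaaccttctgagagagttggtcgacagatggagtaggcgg
CHS, chr5:4488226-4488475, plus strand: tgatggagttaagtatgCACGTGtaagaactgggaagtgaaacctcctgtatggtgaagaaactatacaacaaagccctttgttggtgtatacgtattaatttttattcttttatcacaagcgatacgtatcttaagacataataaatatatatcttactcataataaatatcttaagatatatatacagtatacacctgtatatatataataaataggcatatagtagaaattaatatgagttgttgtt
DFR, chr5:17166033-17166282, minus strand: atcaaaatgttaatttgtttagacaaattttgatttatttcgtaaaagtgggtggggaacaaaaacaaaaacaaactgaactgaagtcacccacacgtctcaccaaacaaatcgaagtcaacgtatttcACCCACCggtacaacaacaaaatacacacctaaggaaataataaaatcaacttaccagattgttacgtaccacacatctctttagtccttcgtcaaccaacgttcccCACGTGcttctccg
Both motifs were searched on both strands, and no AC element overlapped a G-box in the 34 windows. An AC element stood in 5 of 8 monolignol promoters (HCT, C3H1, CCoAOMT1, CCR1 and CAD5), against 6.14% of 26709 promoters of nuclear protein-coding genes of the same length. It stood in 2 of 8 general phenylpropanoid promoters, those of 4CL2 and 4CL3, each with 2 copies, in 0 of 5 early flavonoid promoters, in 2 of 6 late flavonoid promoters (DFR and UGT75C1) and in 2 of 7 regulator promoters (MYB12 and TT8). G-boxes stood in 1 of 8 general phenylpropanoid promoters (PAL4), 0 of 8 monolignol promoters, 2 of 5 early flavonoid promoters (CHS and F3H), 2 of 6 late flavonoid promoters (DFR and ANR) and 2 of 7 regulator promoters (MYB12 and PAP2), against 6.58% of all promoters. Within the lignin-route enzymes, the 7 with an AC element had mean levels of 0.989 to 137 FPKM (median 29.8) and the 9 without one had 3.58 to 64.8 FPKM (median 26.0), so the ranges overlapped. These are matches of letters, and binding was not measured.

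The monolignol enzymes had the highest median, the first flavonoid enzymes had a few FPKM, and DFR, LDOX, TT19 and ANR of the late branch stayed below 1 FPKM. At 1 FPKM or more in every library, 23 of the 34 genes were detected. Over all rows of the tables percent detected was 62.9, so the share of the 34 as a whole was close to that of all genes. By role, 15 of 16 lignin-route enzymes, 7 of 11 flavonoid enzymes and 1 of 7 regulators were detected. Median levels were 27.3 ± 1.75 FPKM for the 16 lignin-route enzymes, 2.15 ± 0.323 FPKM for the 11 flavonoid enzymes and 0.567 ± 0.127 FPKM for the 7 regulators (SD over 3 libraries), beside 4.71 ± 0.0092 FPKM over 27206 nuclear rows. Within the lignin-route enzymes, the 8 monolignol genes had a median of 38.8 ± 0.215 FPKM and the 8 general phenylpropanoid genes, which also feed flavonoids, had 14.3 ± 0.258 FPKM. The median of the lignin-route enzymes exceeded that of the flavonoid enzymes by 3.17 ± 0.22 on the log2(FPKM + 1) scale, in 3 of 3 libraries. On this scale 1 FPKM is added before the logarithm, which narrows differences that involve low genes. With 3 libraries the smallest p of an exact two-sided sign-flip test is 0.25, so differences between genes are given with the number of libraries that share their sign and without a p-value. In whole seedlings, fewer cells of a type and less RNA per cell cannot be told apart.

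**Figure D1:**
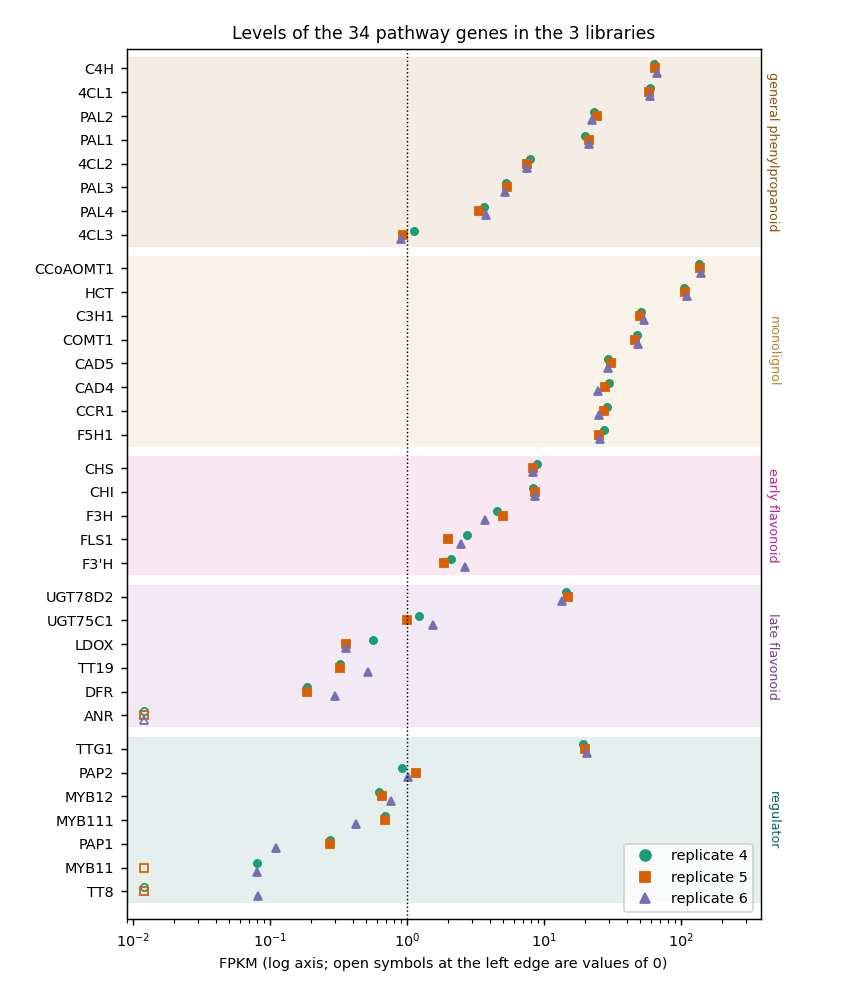
FPKM (log axis) of the 34 genes in replicates 4, 5 and 6, ordered by level within each role; the dotted line marks 1 FPKM and open symbols at the left edge are values of 0. The monolignol genes sit between 24.6 and 139 FPKM in every library, whereas 5 of 7 regulators stay below 1 FPKM in every library.

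PAL2 and PAL1 made up most of the summed RNA level of the 4 PAL genes. PAL2 (AT3G53260, chromosome 3, 19744018 to 19747114, TAIR10.1, as for all coordinates here) had 23.1, 24.2 and 22.5 FPKM in replicates 4, 5 and 6. PAL1 (AT2G37040, chromosome 2, 15557367 to 15560755) had 20.0, 21.1 and 21.4 FPKM. PAL1 was lower than PAL2 in 3 of 3 libraries, with a log2 difference of -0.15 ± 0.071, and the ranges of their levels did not overlap. PAL3 had 5.24, 5.33 and 5.20 FPKM, and PAL4 had 3.65, 3.32 and 3.75 FPKM. Of the summed FPKM of the 4 PAL genes, 43.9 ± 1.19% came from PAL2, 39.4 ± 1.03% from PAL1, 9.93 ± 0.133% from PAL3 and 6.76 ± 0.520% from PAL4. PAL1 and PAL2 share 1.09% and 1.11% of their 50-base words with each other. Only exact matches were counted, and how reads were divided between the 2 genes was not tested.

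C4H, a single gene in Arabidopsis (AT2G30490, chromosome 2, 12993625 to 12996012), had 63.1, 64.3 and 67.0 FPKM. Its level was above the sum of the 4 PAL genes, 53.0 ± 0.993 FPKM, in every library. Among the 4CL genes 4CL1 dominated, with 59.7, 58.2 and 59.0 FPKM. 4CL2 had 7.95, 7.57 and 7.50 FPKM. 4CL3, the isoform tied to flavonoids, had 1.13, 0.930 and 0.906 FPKM and so reached 1 FPKM in replicate 4 alone. Relative to 4CL2, 4CL1 was higher by 2.79 ± 0.030 on the log2 scale, and 4CL3 differed from 4CL1 by -4.92 ± 0.076, each in 3 of 3 libraries. With 4CL5 added, a relative outside the list of 34, 4CL1 held 84.6 ± 0.340% of the family sum and 4CL3 held 1.42 ± 0.160%.

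All 8 monolignol genes were detected, and the highest levels of the pathway were here. CCoAOMT1 (AT4G34050, chromosome 4, 16310409 to 16312308), which methylates caffeoyl-CoA, had 135, 137 and 139 FPKM. HCT (AT5G48930, chromosome 5, 19836299 to 19838235), which moves p-coumaroyl groups to shikimate, had 105, 108 and 110 FPKM. C3H1, the P450 enzyme that hydroxylates the product of HCT, had 51.2, 50.2 and 53.6 FPKM. The order CCoAOMT1, HCT, C4H, 4CL1, C3H1 and COMT1 was free of overlap between libraries. HCT exceeded C3H1 in 3 of 3 libraries, with a log2 difference of 1.04 ± 0.038. C3H1 shares 1.21% of its 50-base words with overlapping antisense genes, of which the protease inhibitor gene CYSA had 47.4 ± 0.375 FPKM.

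Among the enzymes of the last steps, COMT1 stood above F5H1, CCR1, CAD5 and CAD4 in every library. COMT1, a methyltransferase of syringyl units that also methylates flavonols, had 47.7, 46.4 and 48.4 FPKM. F5H1, the P450 enzyme that opens the way to syringyl units and sinapate, had 27.2, 25.3 and 25.6 FPKM, and differed from COMT1 by -0.84 ± 0.054 on the log2 scale in 3 of 3 libraries. CCR1, which reduces CoA esters to aldehydes, had 28.6, 27.2 and 25.4 FPKM. Of the 50-base words of CCR1, 78.7% also lie in 2 annotated antisense genes, of which NRAMP6 had 2.92 ± 0.107 FPKM, so without a stated strand setting its reads are less certain. The 2 main alcohol dehydrogenases were alike in level. CAD5 had 29.3, 30.6 and 29.5 FPKM and CAD4 had 29.9, 27.6 and 24.6 FPKM. Their log2 difference, CAD5 minus CAD4, was 0.12 ± 0.14, below the spread between libraries and above 0 in 2 of 3. Reads pooled over the libraries gave CAD5 1.09 times the level of CAD4, with an exact 95% interval of 1.03 to 1.15 that covers counting error only. In the order of levels, CAD5 overlapped CAD4, CAD4 overlapped CCR1 and CCR1 overlapped F5H1, whereas F5H1 and the next gene, PAL2, did not overlap.

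**Figure D2:**
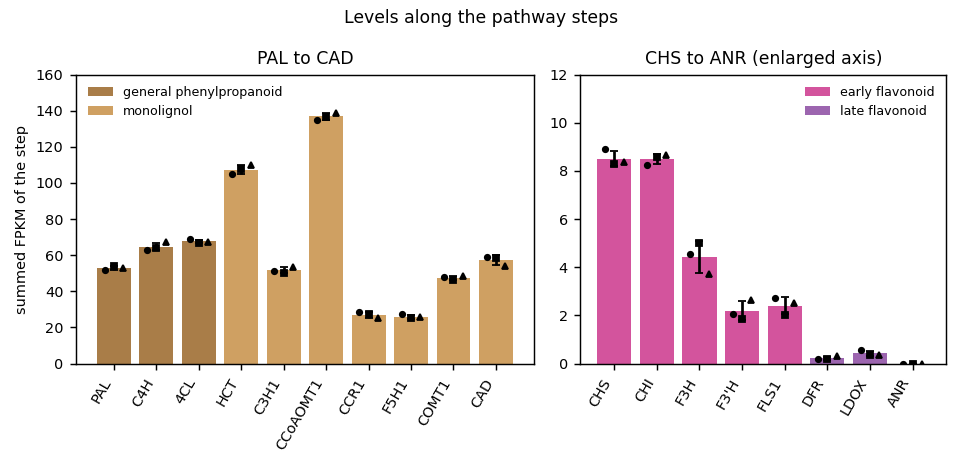
Summed FPKM of each pathway step (bars, mean of 3 libraries; error bars, SD; points, single libraries), from PAL to CAD on the left and from CHS to ANR on the right, where the axis is enlarged. CCoAOMT1 stands at 137 FPKM on the left, while on the right CHS stands at 8.51 FPKM, DFR at 0.222 FPKM, LDOX at 0.428 FPKM and ANR at 0.

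The first flavonoid enzymes were all detected, at 2 to 9 FPKM. CHS (AT5G13930, chromosome 5, 4488476 to 4490264), which condenses p-coumaroyl-CoA with malonyl-CoA and whose promoter with its single G-box is printed above, had 8.89, 8.29 and 8.36 FPKM. CHI, which closes the ring of the chalcone, had 8.26, 8.59 and 8.65 FPKM. CHS and CHI differed by 0.0018 ± 0.081 on the log2 scale, less than the spread between libraries, and the ratio from pooled reads was 1.002 with an exact 95% interval of 0.892 to 1.13. F3H, which makes dihydroflavonols, had 4.56, 5.02 and 3.72 FPKM. It lies opposite an annotated antisense RNA that covers 93.2% of its 50-base words, so its reads are less certain. F3'H, which sets the quercetin and cyanidin pattern, had 2.08, 1.86 and 2.63 FPKM. FLS1 (AT5G08640, chromosome 5, 2803833 to 2805606), which makes flavonols, had 2.72, 2.00 and 2.50 FPKM, overlapping with F3'H. FLS1 differed from CHS by -1.49 ± 0.12 and from F3H by -0.67 ± 0.30 on the log2 scale, below 0 in 3 of 3 libraries in both pairs.

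Both C4H, which lies before the branch and feeds both routes, and HCT exceeded CHS in every library. C4H averaged 64.8 ± 2.00 FPKM and CHS 8.51 ± 0.327 FPKM (SD, n = 3), and their log2 difference was 2.79 ± 0.084. HCT and CHS use the same substrate, p-coumaroyl-CoA. HCT had 107 ± 2.43 FPKM, 12.6 ± 0.729 times the level of CHS, with a log2 difference of 3.51 ± 0.079 in 3 of 3 libraries.

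DFR, LDOX, TT19 and ANR stayed below 1 FPKM in every library. DFR (AT5G42800, chromosome 5, 17164093 to 17166032), which draws dihydroflavonols into the anthocyanin branch, had 0.185, 0.185 and 0.296 FPKM, from 5, 5 and 8 reads. LDOX, which forms anthocyanidins, had 0.561, 0.361 and 0.361 FPKM, from 14, 9 and 9 reads. It shares 3.99% of its 50-base words with AT4G22870. TT19, a glutathione S-transferase that brings anthocyanins to the vacuole, had 0.323, 0.323 and 0.518 FPKM, from 5, 5 and 8 reads. TT19 overlaps the antisense gene PSY (148 ± 1.62 FPKM) over 6.22% of its 50-base words. ANR, also BANYULS, which turns anthocyanidins into tannin units in the seed coat, was at 0 in every library. A count of 0 allows up to 0.147 FPKM per library, taken as 3 counts over its coding length and covering counting error only. This limit lay below the level of LDOX in every library. LDOX averaged 0.428 ± 0.115 FPKM, 2.90 times the limit, a factor that leaves out the counting error of LDOX on 32 reads in all.

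Glucosyltransferases stood above the reductase and oxidase of the same branch. UGT78D2, which adds glucose to flavonols as well as to anthocyanidins, had 14.5, 15.1 and 13.6 FPKM, above every early flavonoid gene in every library. UGT75C1, which adds glucose at another position of anthocyanins, had 1.22, 1.01 and 1.56 FPKM. It overlaps 2 antisense genes over 21.8% of its 50-base words, of which AT4G14100 had 28.7 ± 1.95 FPKM. Without a stated strand setting, the reads of UGT75C1 are therefore less certain. UGT78D2 minus UGT75C1 was 2.78 ± 0.24 on the log2 scale, in 3 of 3 libraries. Over the whole sets, the median of the 5 early genes exceeded that of the 6 late genes by 1.94 ± 0.22 in 3 of 3 libraries. The sign turned, to -0.12 ± 0.23, when genes with a mean under 1 FPKM were left out, which leaves UGT78D2 and UGT75C1 as the only late genes.

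At the branch point between flavonols and anthocyanins, FLS1 exceeded DFR. Their log2 difference was 1.47 ± 0.16, in 3 of 3 libraries, with levels of 2.41 ± 0.366 and 0.222 ± 0.0642 FPKM (SD, n = 3). Pooled reads, 191 for FLS1 and 18 for DFR, gave a ratio per length of 10.8 with an exact 95% interval of 6.68 to 18.7. DFR differed from LDOX by -0.22 ± 0.16 and TT19 from LDOX by -0.041 ± 0.20 on the log2 scale, the second below the spread between libraries.

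**Figure D3:**
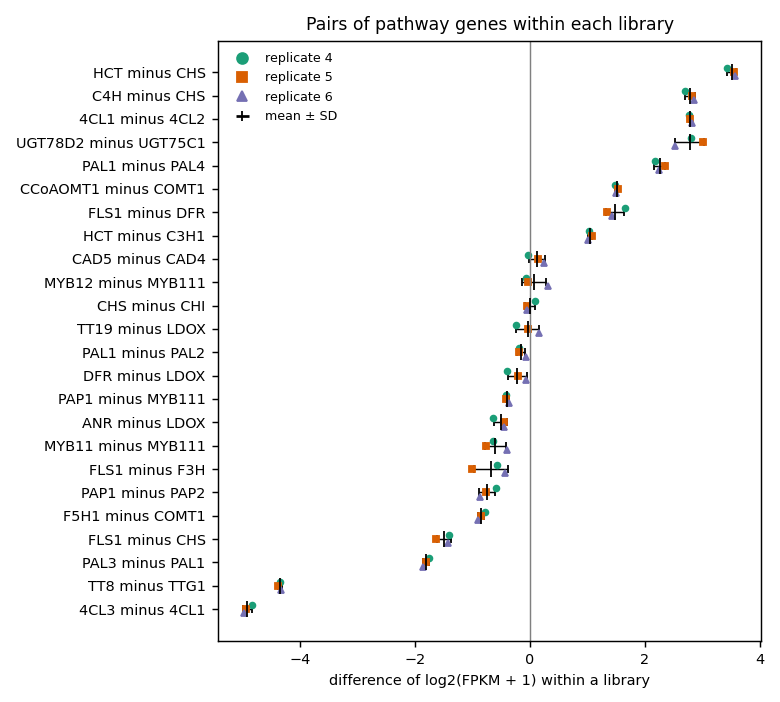
Differences of log2(FPKM + 1) between paired genes within replicates 4, 5 and 6 (symbols), with mean ± SD (black), for 24 pairs. HCT minus CHS lies at 3.51 and 4CL3 minus 4CL1 at -4.92, while CHS minus CHI, MYB12 minus MYB111, TT19 minus LDOX and CAD5 minus CAD4 have libraries on both sides of 0.

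Among the regulators TTG1 alone was detected. TTG1, a WD40 protein that bridges MYB and bHLH factors and also acts in trichomes, had 19.3, 19.9 and 20.7 FPKM. TT8, the bHLH factor that joins it in anthocyanin and tannin cells, had 0, 0 and 0.0823 FPKM, from 3 reads in replicate 6. PAP2 (also MYB90), an anthocyanin activator, had 0.916, 1.17 and 1.02 FPKM, on both sides of 1 FPKM. Its relative PAP1 (also MYB75) had 0.275, 0.275 and 0.110 FPKM, from 5, 5 and 2 reads. PAP1 was below PAP2 in 3 of 3 libraries, with a log2 difference of -0.74 ± 0.14, and pooled reads gave a ratio of 0.212 with an exact 95% interval of 0.104 to 0.398. PAP2 shares 4.44% of its 50-base words with the neighbouring gene MYB114, which was at 0.

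The flavonol activators, which switch on CHS, CHI, F3H and FLS1 without a bHLH partner, were also low. MYB12 had 0.622, 0.657 and 0.761 FPKM. MYB111 had 0.690, 0.691 and 0.422 FPKM, and MYB11 had 0.0806, 0 and 0.0807 FPKM, from 2, 0 and 2 reads. MYB12 and MYB111 overlapped, with a log2 difference of 0.073 ± 0.20 that had both signs among the libraries. MYB11 was lower than MYB111 in 3 of 3 libraries, by a log2 difference of -0.60 ± 0.18. PAP1 differed from MYB111 by -0.39 ± 0.029 in 3 of 3 libraries. Across the order of all 34 genes, 15 of 33 neighbouring pairs had overlapping ranges, and from UGT75C1 downward most did.

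The other genes of the pathway were read from 8 lists with 90 genes, of which 57 were detected, beside 62.9% of all 27416 rows. The sinapate ester and monolignol glucoside list (66.7%) and the list of other flavonoid genes (64.7%) were near that share. For the supply of phenylalanine, 14 of 14 listed genes of the shikimate and arogenate routes were detected, and the list leaves out some steps. Levels ran from DHS2, the first enzyme of the shikimate route, at 187 ± 2.27 FPKM to the chorismate mutase CM3 at 4.78 ± 0.141 FPKM. DHS1, a relative of DHS2, was second at 38.0 ± 1.87 FPKM. Of 13 other lignin genes, 10 were detected. The P450 reductases ATR1 and ATR2, which pass electrons to C4H, C3H1 and F5H1, had 86.4 ± 1.61 and 55.6 ± 1.67 FPKM, and the peroxidase PRX52 was lowest at 0.0411 ± 0.0411 FPKM. Of 9 genes for sinapate esters and monolignol glucosides, 6 were detected. SNG1, which makes sinapoyl malate in leaves, had 215, 217 and 209 FPKM, above every one of the 34 genes in every library, and the aldehyde dehydrogenase REF1 had 87.4 ± 2.31 FPKM. SNG2, which makes sinapoyl choline in seeds, had 0, 0.122 and 0 FPKM.

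Of 11 secondary wall activators only MYB58 (2.48 ± 0.285 FPKM) was detected, MYB61 followed at 0.749 ± 0.261 FPKM, and NST1 and NST3 were at 0, which allows up to 0.137 and 0.140 FPKM. Xylem wall markers, the wall cellulose synthases among them, were detected in 3 of 7 genes, with summed levels of 9.87 to 10.9 FPKM over the libraries. The list shares LAC4 and LAC17 with the other lignin genes. XCP2 was highest of them at 3.43 ± 0.258 FPKM and CESA8 lowest at 0.402 ± 0.0157 FPKM. Their part in the levels of the lignin-route genes was not tested.

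Among 17 other flavonoid genes 11 were detected. RHM1, which makes UDP-rhamnose, had 28.4 ± 0.759 FPKM, and UGT78D1, a flavonol rhamnosyltransferase, had 26.6 ± 0.722 FPKM. UGT78D3 was at 0, which allows up to 0.109 FPKM. None of 7 seed coat tannin genes was detected: the proton pump AHA10 had 0.854 ± 0.179 FPKM, the WRKY factor TTG2 had 0.528 ± 0.166 FPKM, and TT2, TT1 and TT16 were at 0, which allows up to 0.192, 0.165 and 0.187 FPKM. Of 5 partners of the activators, the light-signalling bZIP factor HY5 (12.1 ± 1.04 FPKM) and the bHLH factor EGL3 (2.02 ± 0.193 FPKM) were detected. The anthocyanin MYB genes MYB113 and MYB114 were at 0, which allows up to 0.203 and 0.359 FPKM.

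Of 14 genes for repressors and turnover factors 13 were detected, with a median of 23.4 FPKM. The F-box genes KFB50 and KFB20, whose products mark PAL for breakdown, had 210 ± 4.40 and 166 ± 2.78 FPKM, and KFB39 was at 0, which allows up to 0.122 FPKM. KFB50 had 206, 209.5 and 215 FPKM, above all 34 genes of the pathway in every library.

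**Figure D4:**
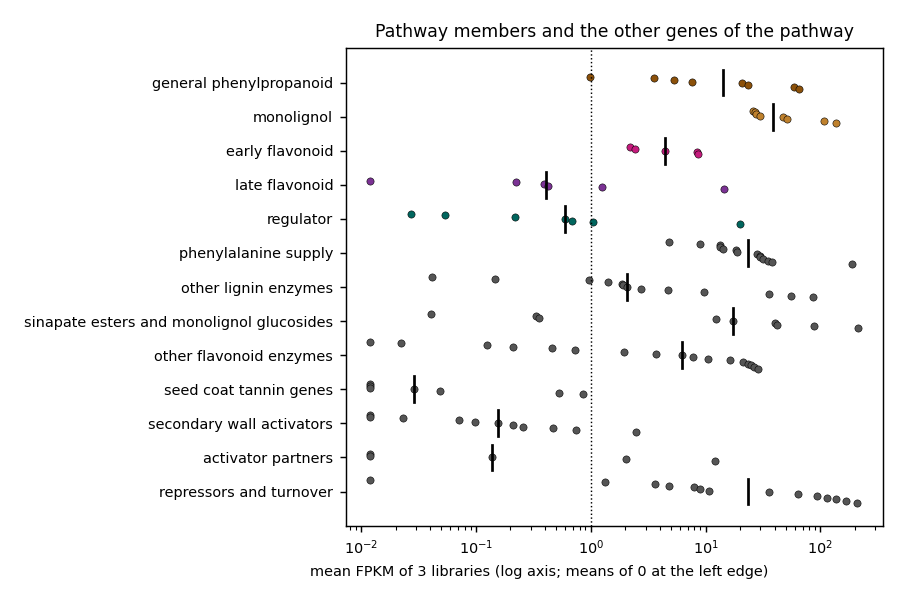
Mean FPKM of 3 libraries (log axis, dots, 1 per gene; means of 0 at the left edge) for the 5 role sets of the 34 genes (coloured) and the 8 further lists (grey); thick marks are medians of the dots and the dotted line is 1 FPKM. The monolignol, phenylalanine supply and repressor sets lie mostly above 10 FPKM, whereas seed coat tannin genes all lie below 1 FPKM.

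The labelled tissue was checked against markers. All 5 leaf markers were detected, from CAB1 at 13523 ± 137 FPKM and RBCS1A at 10938 ± 89.8 FPKM to PSBP1 at 2281 ± 41.8 FPKM. Of 11 root markers 4 were detected: PYK10 had 1195.5 ± 3.50 FPKM, CASP1 4.27 ± 0.733 FPKM, and the root-type genes IRT1 and TIP2;3 also passed, whereas the root hair gene EXPA7 and the nitrate transporter NRT2.1 had 0.0162 ± 0.0281 and 0.0088 ± 0.015 FPKM. Seed markers were detected in 0 of 5 genes: OLEO1 had 0.129 ± 0.0845 FPKM, CRA1 0.109 ± 0.0858 FPKM, and SESA3 and CRU3 were at 0, which allows up to 0.304 and 0.0957 FPKM. Summed levels ran from 1202 to 1209 FPKM for the root list, nearly all of it from PYK10, and from 0.200 to 0.550 FPKM for the seed list. How much root the harvested plants held was not tested.

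On the log2 scale, the spread between the libraries was larger for the flavonoid enzymes than for the lignin-route enzymes. Among genes with 30 reads or more, the median SD of log2(FPKM + 1) was 0.046 over 16 lignin-route enzymes and 0.14 over 8 flavonoid enzymes. Over all 17513 genes tested it was 0.064. The sets were not matched for reads. Whole reads were recovered from the values, with totals of 19921241, 19905762 and 19892527 reads in replicates 4, 5 and 6, and 28 of the 34 genes had 30 reads or more in all. A chi-square test of these reads against the library totals, with Benjamini-Hochberg adjustment over 17513 genes, called 0 of the 28 genes. Percent called over all genes tested was 0.497, so 0 of 28 was near the share of all genes. The median chi-square statistic, which scales the spread by counting error, was 2.15 over the lignin-route enzymes. It was 2.59 over the flavonoid enzymes and 2.04 over all genes tested, so these sets were closer on that measure than in log2 SD. At an unadjusted p below 0.05 the test named 1 of 28 genes, against 13.0% of all genes tested. This test compares 3 libraries and not conditions. The gene was CAD4, with 935, 863 and 768 reads, and with a raw p of 0.000308 and an adjusted p of 0.0557. Without replicate 5, CAD4 passed at an adjusted p of 0.0314. With the counting error scaled by the median dispersion of all genes, a factor of 1.47, its adjusted p was 0.744. F3H, F3'H, FLS1 and UGT75C1 each varied by 1.35 to 1.55 times between the highest and lowest library, on 124 to 379 reads. No library was highest throughout: replicates 4, 5 and 6 were highest in 9, 7 and 12 of the 28 genes.

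**Figure D5:**
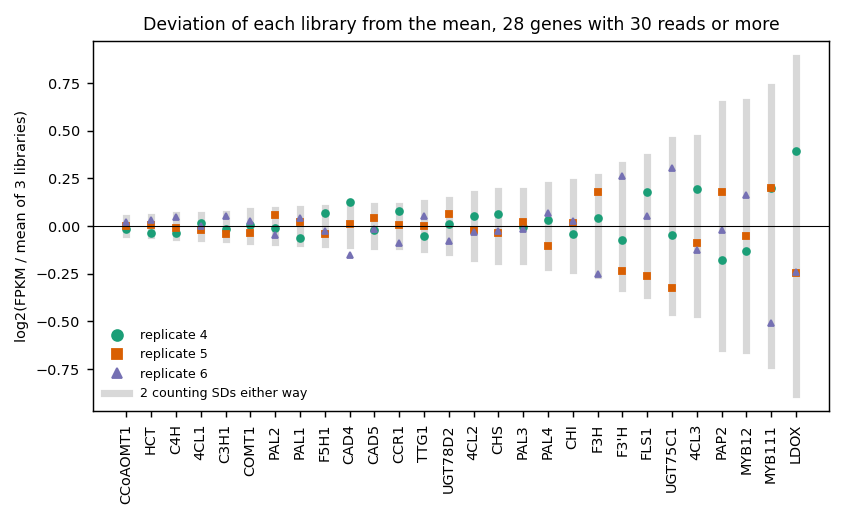
Deviation of each library from the mean of 3 libraries, as log2(FPKM / mean), for the 28 genes with 30 reads or more, ordered by reads; grey bars span 2 counting SDs either way. CAD4 lies outside its bar in replicate 4 (29.9 FPKM) and in replicate 6 (24.6 FPKM), beside a mean of 27.4 FPKM, and the spread widens toward LDOX, which has 32 reads in all.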

How the data were processed

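Total RNA of 3 whole-plant samples was freed of ribosomal RNA and made into directional Illumina libraries, per the labels' protocols. The deposited tables give 1 FPKM value per gene and library, not pooled. The authors' column headers name no unit, and FPKM was taken because the submitters' processing notes name Cufflinks 2.1.1, with TopHat2 2.0.9 and the build TAIR10. Neither the strand setting nor the handling of multiply matching reads is given in the sources used here.

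Each value equals whole reads over the product of gene length and library total, times a constant. Totals were found from genes at their annotated length, and all 20669 genes above 0 in each library came out whole within 0.0001 reads. A length was clear in 20616 genes, among them the 33 pathway genes above 0, when 1 fitting length lay between the longest coding sequence and the exon union, with 2% tolerance. MYB11, TT8 and CCoAOMT1 rest on a multiple of the smallest fitting length. Read recovery and the chi-square test over libraries were tested on simulated data.

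Levels are means ± SD over 3 libraries. Log2 values use a pseudocount of 1 FPKM, and detection means at least 1 FPKM in all 3 libraries. Gene names, coordinates and promoters come from RefSeq on TAIR10.1, where 26719 identifiers matched. The tables hold no coordinates. Named genes were all 34 members, the partners of 24 contrasts, and of each further list the 2 highest, the lowest and every gene at 0. A few others, such as IRT1, TIP2;3, EXPA7 and AT4G14100, were named after their values were seen. The members and all lists were chosen with earlier results of these data known. Alternatives were the pseudocount, scaling, low-value filters, detection rules, read minimum, dispersion scaling and leaving out each replicate. Python 3.11.15, pandas 2.3.3, SciPy 1.17.1 and statsmodels 0.14.6 were used.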

Additional observations from a re-analysis of the deposited data

How the results depend on the processing

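Of the 34 genes, 23 to 26 were detected at 0.5 FPKM, in at least 1 library or on leaving out a replicate, and of the 90 other genes 57 to 61. With a pseudocount of 0.1 FPKM, the log2 median of the flavonoid enzymes was 1.16 in place of 1.65 and that of the regulators -0.60 in place of 0.64. Under it lignin-route minus flavonoid enzymes was 3.62, early minus late flavonoid enzymes 3.17 and FLS1 minus DFR 2.97. Rescaling every library to the same sum of values gave medians of 5.26 for lignin-route enzymes, 1.97 for flavonoid enzymes and 0.82 for regulators, with 2.18 for early minus late enzymes and 1.71 for FLS1 minus DFR. Keeping genes at a mean of 1 FPKM or more gave 2.43 for flavonoid enzymes, 2.71 for regulators, 2.40 for lignin-route minus flavonoid enzymes and -0.12 for early minus late enzymes, since that filter removes DFR, LDOX, TT19 and ANR. Of the other 23 contrasts, the pseudocount moved 14 and the rescaling 6 by more than 1 SD. Leaving out 1 of 3 replicates cannot move a mean difference by 1 SD, so it says nothing about the stability of these contrasts. The chi-square count of pathway genes ran from 0 to 1 on leaving out a replicate, the 1 being CAD4 without replicate 5. No comparison of conditions, paired or not, was possible because there is 1 group. Depth limits DFR, TT19, PAP1, MYB11 and TT8, which rest on 18 reads or fewer in all.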

Other observations

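FLS1 did not have the highest RNA level of its family, and enzyme activity was not measured. FLS5, singled out after its values were seen, had 26.3, 24.2 and 24.5 FPKM and made up 81.3 ± 0.614% of the summed FPKM of FLS1 to FLS6, whereas FLS1 made up 7.81 ± 0.964%. FLS3 had 1.97 ± 0.199 FPKM, and FLS2, FLS4 and FLS6 stayed below 1 FPKM in every library.

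Flavonol glycosyltransferases stood on both sides of FLS1, with UGT78D3 at 0. UGT89C1, a flavonol rhamnosyltransferase also singled out afterwards, had 22.3, 24.8 and 23.8 FPKM, and with UGT78D1 and UGT78D2 it exceeded FLS1 in every library. The LBD37, LBD38 and LBD39 factors, known as repressors of anthocyanin genes that respond to nitrogen, had 115 ± 1.98, 63.6 ± 1.42 and 93.5 ± 2.58 FPKM. MYBL2, another repressor of that branch, had 36.0 ± 0.103 FPKM. KFB-CHS, an F-box gene whose product targets CHS, had 141, 131 and 135 FPKM. The LBD factors, MYBL2 and KFB-CHS were also singled out after their values were seen. On the same list of repressors and turnover factors, SPL9, KFB01 and MYB4 averaged 10.8, 9.01 and 7.96 FPKM. MYB7, MYB32 and CPC averaged 4.80, 3.65 and 1.32 FPKM, and KFB39 was at 0.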
